A study of Mus musculus with 3 samples.

Results

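The 5 genes described here encode enzymes that degrade tryptophan and other aromatic amino acids: Ido1, Ido2, Il4i1, Kmo and Kynu. They were found by symbol among the 27998 gene rows of 3 count matrices, and each symbol had 1 row. They were chosen by their measured levels across these libraries and cell classes, the Ccr7-expressing lysozyme-high cells included, so the levels and ratios below describe the choice and are not tested. The cells were phagocytes of the mouse Peyer's patch, the lymphoid follicles of the small intestine, taken with CD11c microbeads and then sorted as live conventional dendritic cells of both kinds (cDC1 and cDC2), lysozyme-expressing dendritic cells (LysoDC) and macrophages. There was 1 single-cell library per condition, each pooled from 12 female C57BL/6Rj mice. The CpG library (85 Peyer's patches) came from mice that received 125 µg of CpG, an agonist of the receptor TLR9, and the R848 library (90 patches) from mice given R848 at 10 µg, which activates the receptor TLR7; both agonists were injected intraperitoneally, and cells were taken 9 hours later. The Control library (88 patches) came from mice that had no treatment, so the injection itself has no control. The sources used here do not state the age of the mice. With 1 library per condition there was no test of any difference between conditions, and no replicate check. All intervals below are 95% intervals for counting error only.

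Ido1 and Ido2, the indoleamine 2,3-dioxygenases, open the ring of tryptophan in the first and rate-limiting step of the kynurenine pathway; Ido1 is a classic interferon-induced gene of dendritic cells and macrophages, known for restraining T cells by using up tryptophan and forming kynurenines. Kynurenine 3-monooxygenase (Kmo) and kynureninase (Kynu) carry kynurenine on toward quinolinic acid and NAD. Il4i1 is a secreted L-amino acid oxidase of antigen-presenting cells that acts on phenylalanine and tryptophan, and its tryptophan products, like kynurenine, are ligands of the aryl hydrocarbon receptor.

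On the mouse build GRCm38 (mm10) with the GENCODE M21 annotation, Ido1 (ENSMUSG00000031551) lies at chr8:24584136-24597009 and Ido2 (ENSMUSG00000031549) at chr8:24531892-24576333, both on the minus strand and 7802 bases apart. Il4i1 (ENSMUSG00000074141) lies at chr7:44816387-44840809 on the plus strand, Kmo (ENSMUSG00000039783) at chr1:175620381-175662116 on the plus strand, and Kynu (ENSMUSG00000026866) at chr2:43555329-43682715 on the plus strand. The last exon of Il4i1, chr7:44839324-44840809, lies wholly within exons of Tbc1d17 on the opposite strand, and Il4i1 shares 97 exonic bases with Nup62 on its own strand and 82 with Atf5 on the opposite one. The sources used here do not say whether reads were counted by strand, so the Il4i1 counts are uncertain to the extent that reads of these neighbours could have entered them. Within the R848 library Tbc1d17 stood at 21.8 and 21.1 CPM, and Nup62 at 20.9 and 18.7 CPM, in the same classes of cells in which Il4i1 stood at 2996 and 326 CPM. The part of Tbc1d17, Nup62 and Atf5 reads in the Il4i1 counts was not tested.

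RefSeq upstream sequences (GRCm38.p6) matched 2 of the 5 genes, Il4i1 and Kmo. They are shown because these genes had opposite orders between mature dendritic cells, where Il4i1 was higher, and resting cDC2, where Kmo was higher. Each line holds the 250 bases before the RefSeq start, 5′ to 3′ on the plus strand, chr7:44836038-44836287 for Il4i1 and chr1:175631943-175632192 for Kmo. Both stretches lie inside the GENCODE gene intervals, which begin at chr7:44816387 and chr1:175620381. The sequences before those GENCODE starts were not searched for these genes. Capitals mark matches to the NF-kB motif, GGG, any 5 bases and CC, on either strand.
Il4i1: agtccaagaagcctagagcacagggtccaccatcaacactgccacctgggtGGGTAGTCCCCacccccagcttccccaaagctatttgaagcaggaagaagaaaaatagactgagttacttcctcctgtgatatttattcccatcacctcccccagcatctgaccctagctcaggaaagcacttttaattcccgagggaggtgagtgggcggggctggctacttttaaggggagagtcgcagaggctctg
Kmo: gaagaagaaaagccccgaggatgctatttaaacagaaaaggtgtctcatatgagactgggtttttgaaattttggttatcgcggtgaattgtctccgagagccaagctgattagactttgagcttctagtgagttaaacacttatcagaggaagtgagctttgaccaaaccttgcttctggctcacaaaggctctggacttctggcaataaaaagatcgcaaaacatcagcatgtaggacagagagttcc
The Il4i1 sequence held 2 overlapping matches to this motif, starting 199 and 198 bases before the start, and the Kmo sequence held 0. The motif is common: 45.8% of 32851 RefSeq upstream sequences of the same length held it. Neither sequence held the interferon-stimulated response element, GAAA, any 2 bases and GAAA (2.977% of all sequences), the interferon-gamma-activated site, TTC, any 3 bases and GAA (7.02%), or the core of the xenobiotic response element bound by the aryl hydrocarbon receptor, GCGTG (28.16%), on either strand. Ido1, Ido2 and Kynu are named only.

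The CpG, R848 and Control libraries held 5049, 5133 and 5344 barcodes with 43767864, 46556726 and 43537067 unique molecular identifiers (UMIs), and 4821, 4898 and 5079 cells were kept. Between 33 and 42 barcodes were shared by each pair of libraries, none by all 3, and none of them with identical counts. Cells were placed in classes by marker genes, and the counts of a class were summed and scaled to a total of 1000000 UMIs (counts per 1000000, CPM). Lysozyme-high cells carried at least 5000 CPM of Lyz1 and Lyz2, and were divided by the complement genes C1qa, C1qb and C1qc at 3000 CPM. The C1q-high cells were the LysoDC and macrophages: those with 300 CPM and 2 UMIs of Ccr7, the chemokine receptor that leads dendritic cells out of tissue, were called Ccr7-expressing lysozyme-high, those left were divided by the presence of a Cd4 UMI, and both remaining groups together are called the other lysozyme-high cells. Lysozyme-low cells with the same Ccr7 level were called mature dendritic cells, and those without it resting cDC1 or cDC2 by their markers. Since the gates fixed the classes, levels of gate genes are not results. The share of cells in each class follows the sort as well as the treatment.

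In the kept cells of the CpG, R848 and Control libraries, 2113, 2362 and 244 Ido1 UMIs were counted. There were 318, 1755 and 149 UMIs of Ido2, and 38265, 37868 and 12255 of Il4i1. There were 1041, 550 and 1169 of Kmo, and 2115, 2830 and 2917 of Kynu. The cells that held Ido1 differed between the agonists. With CpG, 79.6% of its UMIs were in mature dendritic cells, which were 57.4% of the cells and held 42.4% of the UMIs of all genes. With R848, 27.0% were in the Ccr7-expressing lysozyme-high cells, which were 4.53% of the cells and held 5.50% of all UMIs. The other lysozyme-high cells held 61.0%, beside 52.5% of all UMIs, and mature dendritic cells 9.19%, beside 29.9%. In Control, 89.8% were in the other lysozyme-high cells, which held 50.7% of all UMIs.

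**Figure D1:**
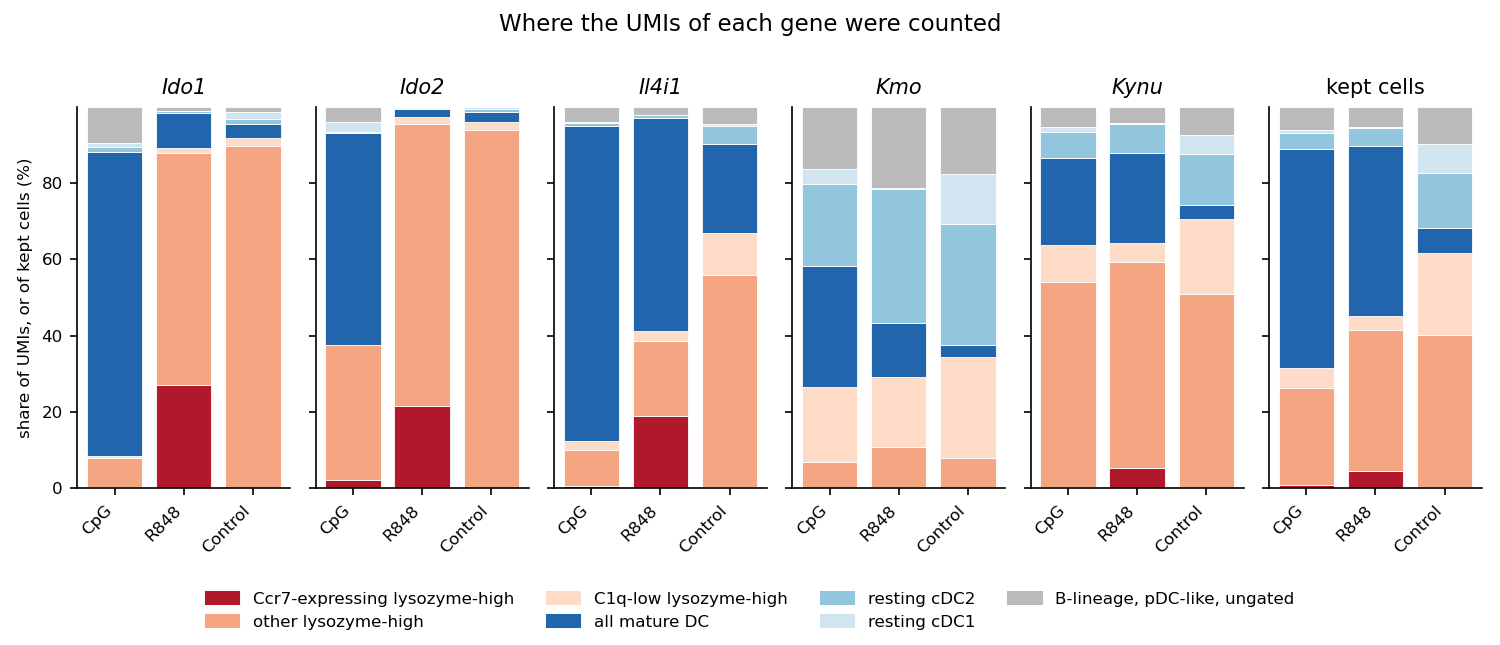
Share of the UMIs of each gene (%, stacked bars) counted in each cell class of the CpG, R848 and Control libraries, with the share of kept cells in the last panel. Ido1 UMIs were mostly in mature dendritic cells with CpG (79.6%) and mostly in lysozyme-high cells with R848 and in Control; resting cDC2 held 21.5%, 35.1% and 31.9% of Kmo UMIs with CpG, with R848 and in Control, and mature dendritic cells 31.8%, 14.0% and 3.08%.

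The Ccr7-expressing lysozyme-high cells of the R848 library had the highest Ido1, Ido2 and Il4i1 levels among the 30 sums of a class in a library that held 50 cells or more. There were 35, 222 and 11 such cells in the CpG, R848 and Control libraries, which were 0.726%, 4.53% and 0.217% of the kept cells. These counts depend on the processing: they were 103, 300 and 26 without doublet removal. With the gates as first written they were 89, 130 and 149, where Control had the most. Those first gates did not divide by C1q, so their class also took in C1q-low cells with Ccr7, here 58, 46 and 139. Their B lineage gate also removed lysozyme-high cells, so the class was not the same population. Ido1 stood at 22.7 CPM (6 UMIs, interval 8.34 to 49.4) with CpG, 267 CPM (637 UMIs, 247 to 288) with R848 and 0 UMIs in Control, where 3 counts would be 54.3 CPM. Ido2 stood at 26.5 CPM with CpG, 159 CPM (143 to 176) with R848 and 0 UMIs in Control. Il4i1 stood at 681 CPM with CpG, 2996 CPM with R848 and 959 CPM in Control. Kynu stood at 34.1 CPM with CpG, 62.4 CPM with R848 and 90.5 CPM in Control on 9, 149 and 5 UMIs, and Kmo had 1, 2 and 0 UMIs. With 35 and 11 cells, CpG and Control gave no ratio here, and the Control cells were too few to show the Ido1 or Ido2 levels of the other classes.

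These cells carried both sets of markers that their name implies, among genes not used to gate them. With R848, 9 of 11 further lysozyme-high markers and 12 of 12 further markers of mature dendritic cells were at 5 CPM or more. Summed, the lysozyme-high markers came to 25388 CPM, against 38896 CPM in the other lysozyme-high cells, and the mature markers to 5699 CPM, against 1323 CPM there and 14672 CPM in mature dendritic cells. Lyz1 was at 10391 CPM and C1qa at 3839 CPM, against 11838 and 7510 CPM in the other lysozyme-high cells. Among the lysozyme-high markers Fcgr1 was at 0 UMIs, and of 6 macrophage markers 4 were at 5 CPM or more, with Cd163 and Mrc1 at 0. Of 8 B lineage markers 1 was at 5 CPM or more, with Pax5 and Fcmr at 0 and a summed level of 359 CPM, against 190 CPM in the other lysozyme-high cells. The median simulated-doublet score was 0.40, against 0.44 in the other lysozyme-high cells and 0.34 in mature dendritic cells, and the median cell held 10750.5 UMIs, against 12485 and 5414.5 UMIs. In the CpG and Control cells of the class the median score was 0.70 and 0.58, against 0.32 and 0.46 in the other lysozyme-high cells. Without doublet removal Ido1 was at 25.0 CPM with CpG and 207 CPM with R848, with 0 UMIs in Control. The part of doublets in these values was not tested.

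Within the R848 library, 3 of the 4 genes that reached 20 CPM were at least 2-fold higher in the Ccr7-expressing cells than in the other lysozyme-high cells, and none was 2-fold lower; of 5106 genes at that level, 6.38% were higher and 6.93% lower. This contrast belongs to the rule that chose the genes, so the counts are a description. Ido1 was 4.22-fold higher (interval 3.84 to 4.63) at 267 CPM, against 63.2 CPM. Ido2 was 2.79-fold higher (2.48 to 3.13) at 159 CPM, against 56.8 CPM. Il4i1 was 9.19-fold higher (8.89 to 9.49) at 2996 CPM, against 326 CPM. Kynu did not differ by more than counting error, at 62.4 CPM, against 67.2 CPM (0.928-fold, 0.779 to 1.10). Kmo was near absent from both, with 2 and 57 UMIs.

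The levels of the dioxygenases in these cells were above those of both populations whose markers they shared. Against mature dendritic cells of the same library, Ido1 was 15.9-fold higher (13.6 to 18.7; 267 CPM, against 16.8 CPM) and Ido2 55.6-fold higher (39.6 to 80.2; 159 CPM, against 2.86 CPM). The Ido2 level of those mature cells rested on 37 UMIs, and the free RNA of the library would give 1.08 CPM. The part of free RNA in that level, and so in the fold, was not tested. Il4i1 was 1.83-fold higher (1.78 to 1.88) at 2996 CPM, against 1639 CPM. Of all genes in that contrast, 20.9% were at least 2-fold higher in the Ccr7-expressing lysozyme-high cells and 11% lower.

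**Figure D2:**
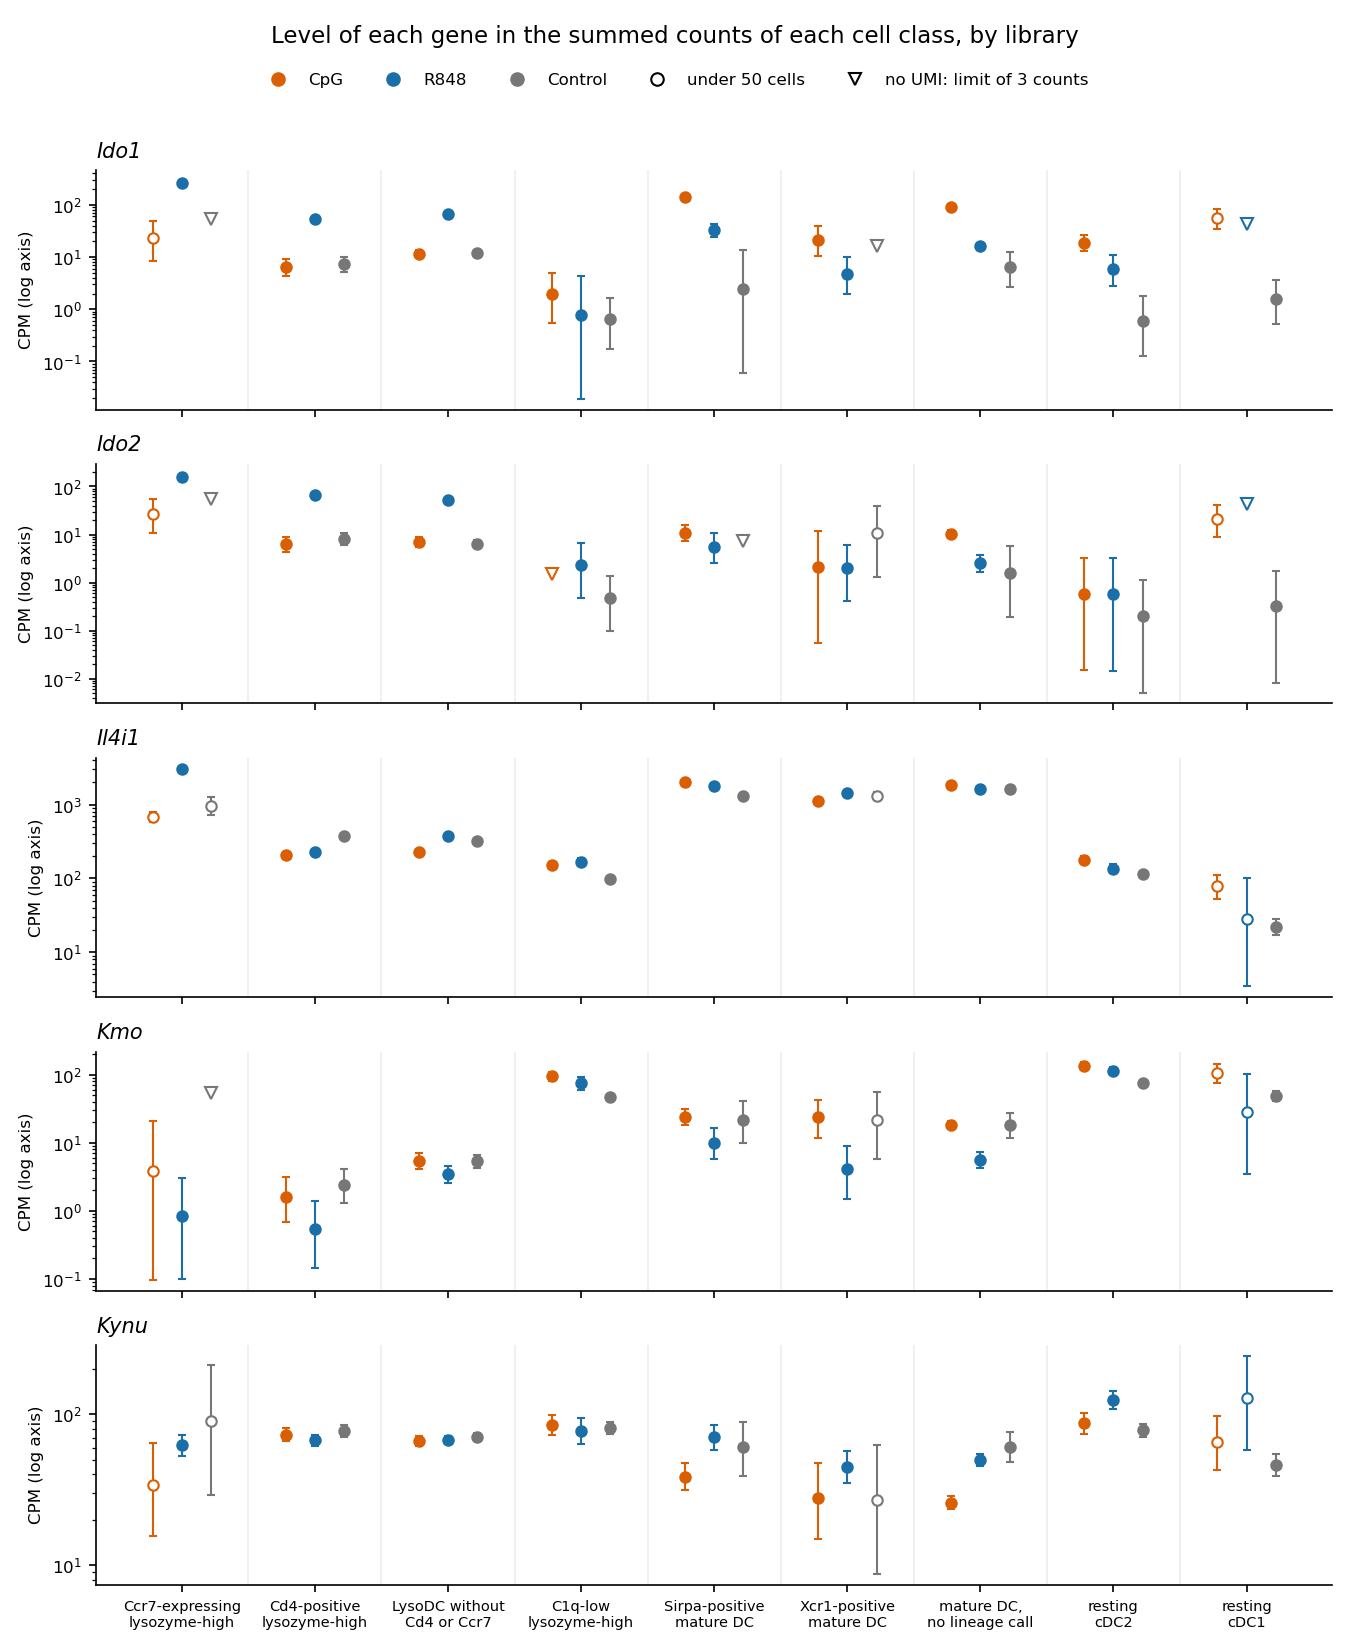
Level of each gene (CPM of summed counts, log axis) by cell class, with CpG, R848 and Control side by side; bars are 95% Poisson intervals, open circles are classes under 50 cells and open triangles mark 0 UMIs at the level 3 counts would give. Ido1 and Ido2 peaked in R848 Ccr7-expressing lysozyme-high cells at 267 and 159 CPM, whereas Kmo, among classes of 50 cells or more, was highest in resting cDC2.

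From 100 CPM of Ccr7 upward, Ido1, Ido2 and Il4i1 were higher in each bin of more Ccr7 among the C1q-high lysozyme-high cells with R848, where 2029 cells were divided into 6 bins. In the 1295 cells without a Ccr7 UMI, Ido1 was at 59.7 CPM, Ido2 at 53.0 CPM and Il4i1 at 295 CPM. The 307 cells with a Ccr7 UMI but less than 100 CPM hardly differed from them, at 56.9, 57.4 and 309 CPM, in the order Ido1, Ido2, Il4i1. In the 194 cells with 100 to 300 CPM of Ccr7 they were at 102, 82.7 and 562 CPM. In the 117 cells with 300 to 900 CPM they were at 214, 129 and 2219 CPM, in the 76 cells with 900 to 2000 CPM at 266, 178 and 3639 CPM, and in the 40 cells with 2000 CPM or more at 404, 201 and 3864 CPM. Kynu showed no such order, at 67.0, 67.7, 68.3, 75.7, 52.0 and 43.6 CPM in the 6 bins. C1qa moved the other way, with 7641 CPM in the lowest bin and 2485 CPM in the highest, while the median UMIs per cell, 12267 and 10494, changed little. Cells just under and just over the Ccr7 gate therefore had intermediate levels. With CpG the bins of 100 to 300 CPM (156 cells) and 300 to 900 CPM (29 cells) had 10.4 and 20.5 CPM of Ido1, on 20 and 4 UMIs.

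**Figure D3:**
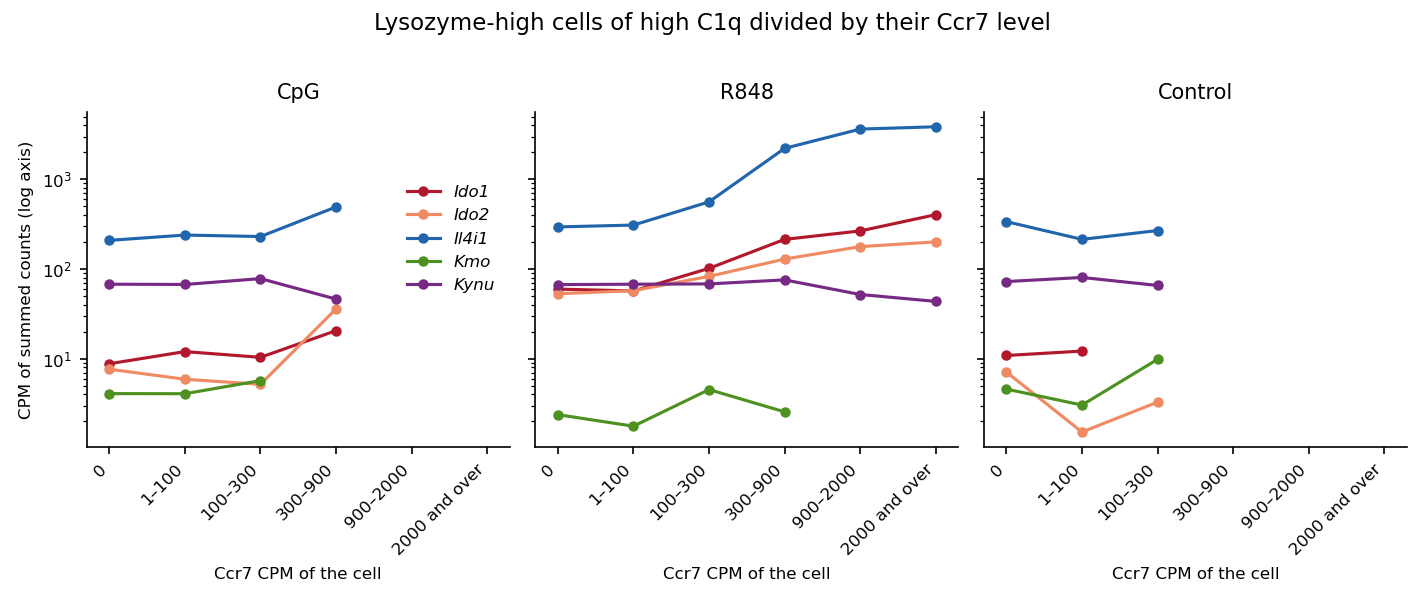
Levels of the 5 genes (CPM, log axis) in C1q-high lysozyme-high cells divided by the Ccr7 level of the cell, in the CpG, R848 and Control libraries; bins under 20 cells and sums without a UMI are not drawn. With R848, Ido1 stood at 59.7 CPM in cells without Ccr7 and 404 CPM in those with the most, whereas Kynu stayed between 43.6 and 75.7 CPM.

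C1q-high lysozyme-high cells without Ccr7 also carried more of both dioxygenases with R848, whether or not they had a Cd4 UMI. C1q-low lysozyme-high cells without Ccr7 had 4, 1 and 4 Ido1 UMIs with CpG, with R848 and in Control, too few to compare. In the LysoDC without Cd4 or Ccr7 (847, 1210 and 1485 cells), Ido1 stood at 11.5 CPM with CpG, 67.9 CPM with R848 and 12.0 CPM in Control, a 5.67-fold higher level with R848 than in Control (4.84 to 6.68). Ido2 stood at 6.99, 51.5 and 6.39 CPM, 8.05-fold higher with R848 (6.51 to 10.1). In the Cd4-positive lysozyme-high cells (388, 597 and 546 cells), which in the Peyer's patch hold macrophages, Ido1 stood at 6.39 CPM with CpG, 53.6 CPM with R848 and 7.23 CPM in Control, 7.41-fold higher with R848 (5.33 to 10.6). Ido2 stood at 6.39, 67.9 and 8.15 CPM, 8.33-fold higher with R848 (6.12 to 11.6). For CpG against Control the intervals of all 4 ratios included 1, from 0.783-fold (0.481 to 1.26) for Ido2 in Cd4-positive cells to 1.09-fold (0.803 to 1.49) for Ido2 in the LysoDC.

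So 2 of the 4 genes at 20 CPM, Ido1 and Ido2, were at least 2-fold higher with R848 than in Control in each of these classes; the background was 3.84% of 4815 genes in the LysoDC and 5.38% of 5038 genes in the Cd4-positive cells. None was 2-fold lower, against 1.56% and 1.98% of genes. Ido1 and Ido2 reached 20 CPM in these classes only with R848, so they could be counted as higher with R848 but not as lower. With CpG and in Control both were under that level, so the next count leaves them out. All these counts describe genes chosen by their levels. With CpG neither of the 2 genes at 20 CPM, Il4i1 and Kynu, was 2-fold higher or lower than in Control in either class, against 2.96% higher and 0.687% lower in the LysoDC and 3.79% and 0.701% in the Cd4-positive cells. Between the agonists, Ido1 and Ido2 were again the 2 of 4 that were at least 2-fold higher with R848: Ido1 5.93-fold (4.94 to 7.17) and Ido2 7.36-fold (5.84 to 9.38) of the CpG level in the LysoDC (background 1.32% higher and 0.567% lower), and 8.39-fold (5.85 to 12.4) and 10.6-fold (7.44 to 15.7) in the Cd4-positive cells (background 1.76% and 0.566%).

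Il4i1 parted from the dioxygenases in these cells. In the Cd4-positive cells it was lower with both agonists, at 204 CPM with CpG, 227 CPM with R848 and 378 CPM in Control, 0.540-fold (0.501 to 0.583) and 0.602-fold (0.564 to 0.642) of Control. In the LysoDC it stood at 228, 374 and 317 CPM, 0.718-fold (0.685 to 0.754) with CpG and 1.18-fold (1.14 to 1.23) with R848. None of these ratios reached 2-fold, except that in the Cd4-positive cells it did so with CpG when the Cd4 gate asked for 2 UMIs, when free RNA was subtracted or with the gates as first written, and with R848 in the first and last of these. Kynu hardly varied: it lay between 66.8 and 77.6 CPM in the 6 sums of these classes. Kmo lay between 0.54 and 5.42 CPM in all of them, too low to compare.

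**Figure D4:**
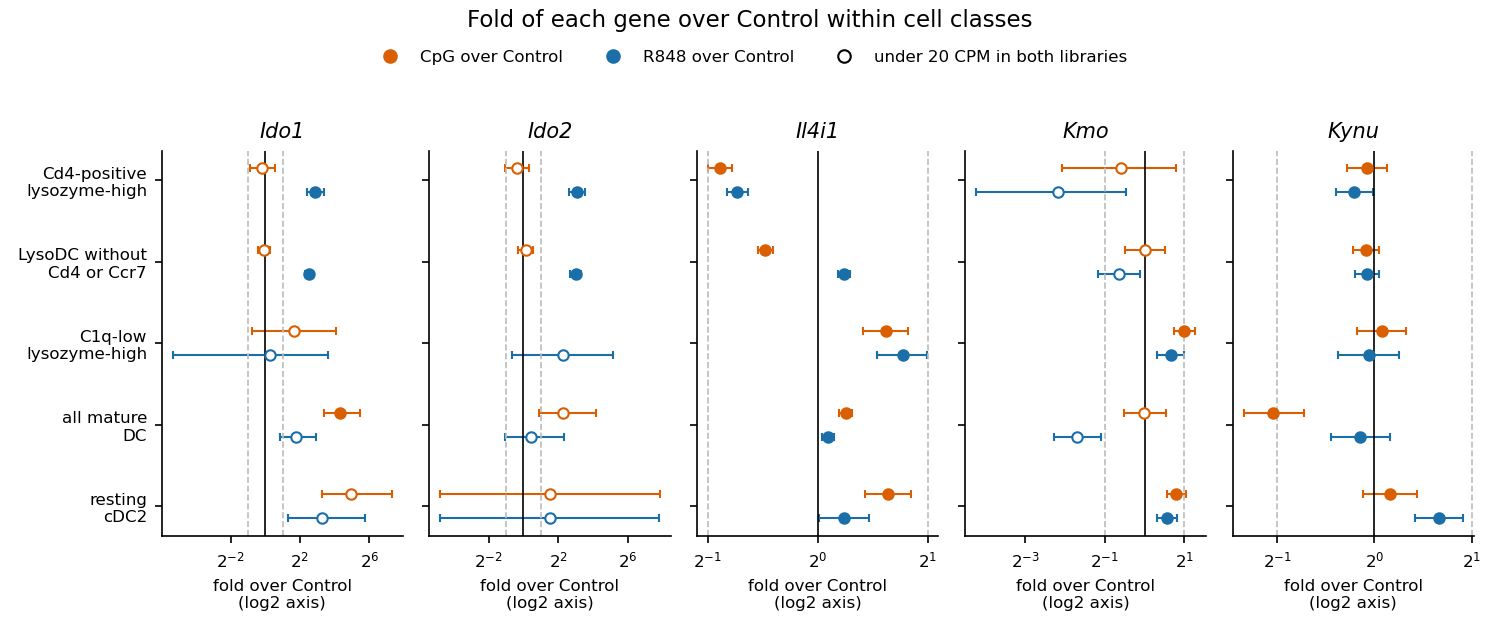
Fold of each gene over Control (log2 axis) with CpG and with R848 in 5 cell classes, with 95% counting intervals; dashed lines mark 2-fold, and open circles stand for genes under 20 CPM in both libraries. Ido2 with CpG in C1q-low cells, at 0 UMIs, is not drawn. Ido1 was 20.2-fold higher with CpG in mature dendritic cells and 5.67-fold higher with R848 in the LysoDC without Cd4 or Ccr7.

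A larger share of lysozyme-high cells held an Ido1 UMI with R848. Among the other lysozyme-high cells, an Ido1 UMI was found in 10.9% with CpG, 39.6% with R848 and 9.60% in Control, and among the Ccr7-expressing cells of the R848 library in 70.7%. After each cell was thinned to 3000 UMIs these shares were 2.99%, 16.3% and 3.01%, and 46.0%. In C1q-low lysozyme-high cells without Ccr7 of the same R848 library, with a median of 9355 UMIs, 1 of 141 cells had an Ido1 UMI, and the free RNA of the library would give 1.5 CPM. The dioxygenases were often found in the same cells: with R848, an Ido2 UMI was present in 50.1% of the 715 other lysozyme-high cells with Ido1 and in 32.6% of those without, whose median UMIs were 12963 and 12127. In Control the shares were 6.15% and 6.48%. Cells were also divided by Il12b, which encodes a subunit of the cytokines IL-12 and IL-23. Those with at least 300 CPM and 2 UMIs of it were called Il12b-positive, so the rest could hold some Il12b. Among the other lysozyme-high cells with R848, Ido1 was at 125 CPM in the 188 Il12b-positive cells, against 56.5 CPM in the rest (2.22-fold, 1.94 to 2.53). Ido2 was at 92.6 CPM, against 53.0 CPM (1.75-fold, 1.5 to 2.03), Il4i1 at 616 CPM, against 295 CPM (2.09-fold, 1.97 to 2.22), and Kynu at 82.3 CPM, against 65.6 CPM (1.25-fold, 1.07 to 1.46). Of the Ccr7-expressing lysozyme-high cells with R848, 152 were Il12b-positive and 70 were not. The interval for Ido1 included 1 between them (274 CPM, against 247 CPM, 1.11-fold, 0.924 to 1.34). Ido2 was 1.51-fold (1.16 to 1.97) and Il4i1 1.46-fold (1.38 to 1.55) in the Il12b-positive ones.

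**Figure D5:**
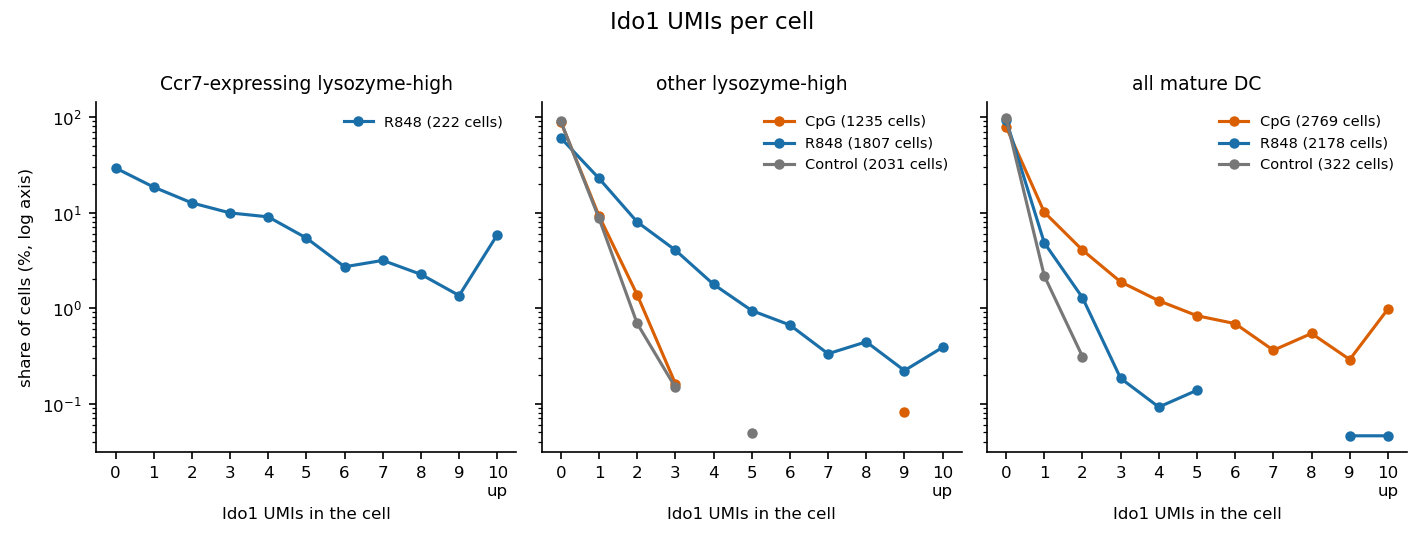
Share of cells (%, log axis) by the number of Ido1 UMIs they held, in 3 cell classes and in each library with 50 cells or more. In Ccr7-expressing lysozyme-high cells with R848, 70.7% of cells had at least 1 UMI; in mature dendritic cells with CpG 20.9% did, with a tail up to 25 UMIs.

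In mature dendritic cells the order of the agonists was the opposite. Over all 2769, 2178 and 322 of them, Ido1 stood at 97.5 CPM (1683 UMIs) with CpG, 16.8 CPM (217 UMIs) with R848 and 4.83 CPM (9 UMIs) in Control. With CpG it was 20.2-fold higher than in Control (10.6 to 44.3), and R848 had 0.172-fold of the CpG level (0.148 to 0.198). R848 had 3.47-fold of the Control level (1.79 to 7.69), at under 20 CPM in both libraries. Ido2 was low throughout, at 10.3, 2.86 and 2.15 CPM. Of the 3 genes at 20 CPM with CpG or in Control, 1, Ido1, was at least 2-fold higher with CpG, against a background of 9.13% of 4526 genes; none was 2-fold lower, against 6.32%. Of the 2 at that level with R848 or in Control, neither was 2-fold higher (background 6.08%) or lower (6.92%). Between the agonists, 1 of 3, Ido1, was at least 2-fold lower with R848 (background 3.77% lower and 1.22% higher). Ido1 reached 20 CPM in these cells with CpG alone, so it entered these counts only where it was high, and they are a description.

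Within the mature dendritic cells Ido1 was mainly in the Sirpa-positive, cDC2-type cells and in those without a lineage call. In Sirpa-positive cells (349, 245 and 72) it stood at 142 CPM with CpG, 32.5 CPM with R848 and 2.42 CPM in Control on a single UMI, 58.7-fold with CpG (10.5 to 2324) and 13.4-fold with R848 (2.31 to 541). In both contrasts 1 gene, Ido1, was at least 2-fold higher, against 11.6% of genes with CpG and 8.71% with R848. None was lower, against 7.72% and 10.1%. Ido1 was under 20 CPM in Control, so it entered both counts through the agonist library alone. R848 had 0.229-fold of the CpG level there (0.168 to 0.307), Ido1 being the 1 of 4 past 2-fold (background 6.19% lower and 2.31% higher). In Xcr1-positive, cDC1-type cells (54, 173 and 22) it stood at 21.5 CPM with CpG, 4.78 CPM with R848 and 0 UMIs in Control. Sirpa-positive cells therefore had 6.61-fold of the Xcr1-positive level with CpG (3.55 to 13.9) and 6.80-fold with R848 (3.08 to 17.7), where 8.6% and 7.12% of genes were at least 2-fold higher and 5.96% and 3.02% lower. In mature cells without a lineage call it stood at 92.3 CPM with CpG, 16.0 CPM with R848 and 6.32 CPM in Control. Only the CpG level passed 20 CPM, so Ido1 entered the counts there through CpG alone. Ido1 was the 1 of 3 genes higher with CpG than in Control there (background 9.29%), neither of 2 was higher or lower with R848 (6.17% and 6.61%), and Ido1 was the 1 of 3 lower with R848 than with CpG (3.32% lower, 1.16% higher).

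The Ido1 UMIs of CpG mature dendritic cells were uneven. An Ido1 UMI was found in 20.9% of these cells (15.2% after thinning to 3000 UMIs), against 6.61% with R848 and 2.48% in Control, and the tenth of the cells with the most Ido1 held 80.8% of its UMIs. The 689 cells with at least 300 CPM and 2 UMIs of Il6 had 161 CPM of Ido1, against 76.3 CPM in the rest (2.11-fold, 1.91 to 2.33). The 142 Il12b-positive cells, called by the same levels, had 22.5 CPM, against 101 CPM in the rest (0.222-fold, 0.133 to 0.348). The order by Il12b was the other way in mature dendritic cells with R848, where the 54 positive cells had 71.1 CPM, against 15.4 CPM in the rest (4.63-fold, 2.86 to 7.15).

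Il4i1 was present in nearly all mature dendritic cells of every library. A UMI of it was found in 97.4%, 97.5% and 92.2% of mature dendritic cells with CpG, with R848 and in Control, at 1834, 1639 and 1540 CPM. Mature cells had 10.3-fold (9.16 to 11.5), 12.1-fold (10.6 to 13.8) and 13.4-fold (12.2 to 14.7) of the level of resting cDC2 in the same 3 libraries. The agonists moved it little within mature cells: 1.19-fold of Control with CpG (1.15 to 1.24) and 1.06-fold with R848 (1.02 to 1.11), a direction that turned with R848 (log2 ratio 0.09 here) when the Ccr7 gate was set at 900 CPM (-0.08). Its share of UMIs in mature dendritic cells was 82.7% with CpG, 56.1% with R848 and 23.4% in Control, where those cells were 57.4%, 44.5% and 6.34% of the cells. With R848 the Ccr7-expressing lysozyme-high cells held a further 18.9%, beside 5.50% of the UMIs of all genes. C1q-low lysozyme-high cells with Ccr7 (58, 46 and 139 cells) stood at 1646, 2107 and 874 CPM. With R848 these 46 cells, under the 50 that a ratio needed, also had 76.8 CPM of Ido1 (28 UMIs, 51.0 to 111) and 90.5 CPM of Ido2 (33 UMIs, 62.3 to 127); with CpG and in Control they had 5 and 1 UMIs of Ido1 and 0 of Ido2.

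Kmo and Kynu had the opposite order to Il4i1. Kmo stood at 19.2 CPM in mature dendritic cells with CpG, against 132 CPM in resting cDC2, at 5.94 CPM with R848, against 113 CPM, and at 19.3 CPM in Control, against 75.8 CPM. These were 0.146-fold (0.123 to 0.173), 0.0527-fold (0.0399 to 0.069) and 0.255-fold (0.176 to 0.359) of the resting level. Kynu stood at 27.9, 51.7 and 57.4 CPM in mature cells, against 87.6, 124 and 78.4 CPM in resting cDC2, or 0.318-fold (0.264 to 0.385), 0.416-fold (0.356 to 0.487) and 0.732-fold (0.585 to 0.908). By the 2-fold rule Kmo and Kynu were lower in mature than in resting cells with CpG and with R848, and Kmo in Control; 23.4%, 30% and 15.7% of genes were lower in the same 3 contrasts. Il4i1 was higher in all 3 and Ido1 with CpG, where 11%, 11.7% and 8.32% of genes were higher. Ido1 with CpG, and Kmo in all 3, reached 20 CPM on the higher side alone, so these counts are a description.

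Among mature cells Kynu was lower with CpG (0.486-fold of Control, 0.393 to 0.605, short of 2-fold on the log2 scale with 5 CPM added), which passed 2-fold in the mature cells without a lineage call (26.0 CPM, against 60.9 CPM, 0.427-fold, 0.333 to 0.553; 6.53% of genes were lower). Kmo was lower with R848 (0.308-fold, 0.205 to 0.471) at under 20 CPM in both libraries. In resting cDC2 the same genes leaned the other way: Kmo was 1.74-fold (1.47 to 2.06) of Control with CpG and 1.49-fold (1.24 to 1.77) with R848, a direction that turned (log2 ratio 0.54 here, -0.10 there) when Lyz1 alone set the lysozyme gate, and Kynu 1.12-fold (0.919 to 1.35) and 1.59-fold (1.34 to 1.88). C1q-low lysozyme-high cells without Ccr7 (197, 141 and 956) had 93.8 CPM of Kmo with CpG, 74.3 CPM with R848 and 46.8 CPM in Control, against 4.26, 2.50 and 4.60 CPM in the other lysozyme-high cells. None of 3 genes passed 2-fold in those C1q-low cells with either agonist once 5 CPM was added (Kmo with CpG was 2.004-fold of Control before that, 1.66 to 2.41; background 3.02% higher and 1.24% lower with CpG, 1.92% and 1.25% with R848). None of the 3 genes at 20 CPM passed it in resting cDC2 either (3.48% and 1.18% with CpG, 2.18% and 0.983% with R848). Ido1 lay just under that level in resting cDC2 and so was not counted: it stood at 18.8 CPM with CpG, 5.84 CPM with R848 and 0.610 CPM in Control on 32, 10 and 3 UMIs, which is 30.9-fold of Control with CpG (9.66 to 158) and 9.58-fold with R848 (2.47 to 54.2).

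Over the 30 sums, ordered by level, neighbours differed by more than counting error in 6 of 29 steps for Ido1, 3 for Ido2, 14 for Il4i1 and 0 for Kmo and Kynu. For Ido1 the R848 Ccr7-expressing lysozyme-high cells (267 CPM) came first, apart from the CpG B-lineage cells (168 CPM) in second place. Those B-lineage cells also carried Ccr7 and Fscn1, genes of mature dendritic cells. The part of mature dendritic cells in their Ido1 level was not tested. CpG Sirpa-positive mature cells (142 CPM) could not be told from that second place and were apart from CpG mature cells without a lineage call (92.3 CPM). For Ido2 the first 3 places among these sums, which leave out the 46 C1q-low cells with Ccr7 of the R848 library, were the R848 Ccr7-expressing, Cd4-positive and remaining lysozyme-high cells, at 159, 67.9 and 51.5 CPM, each apart from the next. Kynu spanned 22.5 to 124 CPM, Kmo 0.54 to 132 CPM and Il4i1 22.3 to 2996 CPM.

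The genes most alike in pattern were named by the Pearson correlation of log2(CPM + 5) over the 30 sums among 4350 genes; the sums share libraries and depth, and the values are descriptive. For Ido1 they were Ift22 (r = 0.885), Vti1a (0.872) and Zdhhc6 (0.850), and for Ido2 Loxl3 (0.895), Enpp2 (0.863) and Bcl2l15 (0.863). For Il4i1 they were Socs2 (0.959), Gm10851 (0.949) and Birc2 (0.938), for Kmo Znrd1 (0.930), Hhex (0.929) and Cct5 (0.928), and for Kynu Adgrg5 (0.857), Ifngr2 (0.849) and Gripap1 (0.845). Among the 5 genes themselves, r was 0.775 for Ido1 with Ido2, 0.563 for Ido1 with Il4i1 and -0.656 for Ido2 with Kmo.

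The rest of the pathway was sparsely measured. Of 15 other enzymes of the kynurenine and NAD routes, 13 were in the matrices and 2, Got2 and Nampt, reached 20 CPM in each contrast of the LysoDC, Cd4-positive, mature and Ccr7-expressing classes; neither passed 2-fold. Nampt, the salvage enzyme of NAD synthesis, came closest, at 156 CPM with R848 and 80.1 CPM in Control in the LysoDC, and at 336 CPM in Ccr7-expressing lysozyme-high cells with R848, against 177 CPM in the others. Tdo2, the tryptophan dioxygenase of the liver, had 1 UMI among the LysoDC of Control and 0 in the other classes of the 3 libraries. Afmid, the formamidase that follows the dioxygenases, had 0.41, 0.23 and 0.54 CPM in mature dendritic cells and 0.67, 1.27 and 1.08 CPM in the other lysozyme-high cells. Haao, which follows Kynu, stood at 21.8 CPM with CpG, 19.3 CPM with R848 and 26.0 CPM in Control in resting cDC2, and at 4.06, 17.1 and 18.8 CPM in mature dendritic cells. Qprt, which makes the NAD precursor from quinolinic acid, was at 5.26 CPM or less in the same classes.

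Of 20 genes of other aromatic amino acid routes, 6 reached 20 CPM with R848 or in Control in the LysoDC and none passed 2-fold; in the Cd4-positive cells 1 of 6 was lower, Spr, a sepiapterin reductase (60.1 CPM with R848, against 126 CPM; 1.98% of all genes were lower). With CpG in mature dendritic cells, where 6.32% of all genes were lower, 2 of 5 were lower: Gch1, the first enzyme of tetrahydrobiopterin synthesis (23.4 CPM, against 111 CPM), and Mif, a cytokine with tautomerase activity (154 CPM, against 552 CPM). Gch1 was also lower in Ccr7-expressing than in other lysozyme-high cells with R848 (16.8 CPM, against 68.5 CPM), 1 of 6, where 6.93% of all genes were. Of 10 amino acid transporters, Slc7a8, a carrier of neutral amino acids, was the 1 of 6 that was higher with R848 in the LysoDC (65.7 CPM, against 28.8 CPM), beside 3.84% of all genes. In Ccr7-expressing cells with R848 (6.38% of all genes higher and 6.93% lower), 1 of 5 was higher, Slc7a11, the cystine carrier (437 CPM, against 194 CPM), and 2 were lower, Slc43a2 (8.38 CPM, against 54.3 CPM) and Slc7a8 (23.5 CPM, against 74.3 CPM). Of 11 receptors and sensors of tryptophan products, 2 of 4 were lower in mature cells with CpG than in Control, beside 6.32% of all genes: Gpr35, a receptor of kynurenic acid (18.4 CPM, against 56.3 CPM), and Ahr, the aryl hydrocarbon receptor (12.0 CPM, against 30.6 CPM). Ddit3, a stress-response factor, was the 1 of 5 higher with R848 in the LysoDC (30.3 CPM, against 11.4 CPM), beside 3.84% of all genes.

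All 16 interferon and NF-kB regulators were measured. With R848 in the LysoDC (3.84% of all genes higher and 1.56% lower) 3 were at least 2-fold higher, among them Irf7 (1033 CPM, against 69.8 CPM in Control) and Stat2 (83.7 CPM, against 28.8 CPM), transcription factors of the interferon response. The 1 that was lower was Ifngr1, a chain of the interferon-gamma receptor (255 CPM, against 519 CPM). With CpG in mature dendritic cells (9.13% and 6.32%) the count was also 3 higher and 1 lower, with Irf7 at 465 CPM, against 13.9 CPM, Stat2 at 60.7 CPM, against 12.9 CPM, and Ifngr1 at 40.4 CPM, against 353 CPM. In Ccr7-expressing lysozyme-high cells with R848 (6.38% and 6.93%), 4 were higher and 2 lower than in the other lysozyme-high cells, among them Irf1 (138 CPM, against 40.2 CPM), the NF-kB subunit Relb (470 CPM, against 157 CPM), Irf8 (554 CPM, against 230 CPM) and Ifngr1 (78.8 CPM, against 223 CPM). Irf7 did not separate those classes, at 1106 CPM in Ccr7-expressing cells, against 1032 CPM in the others. In each contrast given for these regulators Ido1 was higher too. Contrasts in which it was not called higher are not reported here, and a relation of the regulators to Ido1 was not tested. The median log2 ratio of the 4 measured tryptophan genes was 1.17 in the LysoDC with R848 and 1.70 in the Ccr7-expressing cells. Over 3 genes in mature cells with CpG it was 0.25. The medians over all genes at 20 CPM were 0.09, -0.03 and 0.12 in the same order. The LysoDC median lies between Ido1 and Ido2, which passed 2-fold, and Il4i1 and Kynu, which did not, so it describes no single gene. The tryptophan genes were chosen by their levels, so these medians are a description.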

How the data were processed

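The authors deposited 1 matrix of UMI counts per library, per the submitters' processing notes made with Cell Ranger 2.0.0 on mm10, with no annotation release given. The counts are whole numbers and not normalized. Here cells with at least 500 genes and at most 10.0% mitochondrial counts were kept, after removal of the barcodes with the highest simulated-doublet scores (0.8% per 1000 cells). Classes were gated per cell, counts were summed per class and library, and levels were given as CPM with exact Poisson intervals, shares with exact Clopper-Pearson intervals and ratios with exact conditional binomial intervals, at 95%. A gene was called 2-fold higher or lower when its log2 ratio with 5 CPM added reached 1 in size and 1 of the sums held 20 CPM. Classes under 50 cells entered no ratio. Precision follows the UMIs behind a value, and intervals cover counting error only.

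The members and gene lists were chosen with earlier results of these data known. Genes of each other list were named by the largest log2 ratio, at most 4 per list and contrast, with at least 20 CPM and 20 UMIs; Haao, Qprt, Afmid and Tdo2, and Irf7 in the Ccr7-expressing contrast, were named in addition, after their values were seen. Some genes of the lists are counted but not reported here by name. Departures from the written plan came after the data were seen. The B lineage gate (3 UMIs) had taken 22.3%, 32.9% and 21.1% of the lysozyme-high cells of the CpG, R848 and Control libraries, so it was applied to lysozyme-low cells alone. The lysozyme gate had also caught C1q-low cells, mostly in Control, so it was divided at 3000 CPM of C1q.

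The free RNA of a library was estimated at 2.50%, 2.69% and 3.31% of counts for CpG, R848 and Control. The ratio step was tested on simulated data. Python 3.11.15, numpy 2.4.6, scipy 1.17.1, scikit-learn 1.9.0 and pandas 2.3.3 were used, and edgeR 4.0.16 for TMM factors only. Alternatives (14 planned, 4 added after the data were seen) changed gates, filters, doublet removal, free RNA, the added CPM, the minimum level and the scaling.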

Additional observations from a re-analysis of the deposited data

Results flagged for a closer look

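Under the same agonist, some of the genes moved opposite ways in different classes, with intervals that left out 1 on each side; the differences between classes were not tested, since each condition is 1 library. Il4i1 with CpG was 0.540-fold of Control (0.501 to 0.583) in Cd4-positive lysozyme-high cells and 1.56-fold (1.35 to 1.79) in resting cDC2. Il4i1 with R848 was 0.602-fold of Control (0.564 to 0.642) in Cd4-positive lysozyme-high cells and 1.71-fold (1.46 to 1.99) in C1q-low lysozyme-high cells without Ccr7. Kynu with R848 was 0.866-fold of Control (0.759 to 0.989) in Cd4-positive lysozyme-high cells and 1.59-fold (1.34 to 1.88) in resting cDC2, where the log2 ratio was 0.11 when Lyz1 alone set the lysozyme gate.

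Cells outside the classes compared above also carried these genes above their Control level. B-lineage cells, which lie outside the sort (128, 103 and 68 cells with CpG, with R848 and in Control), had 168 CPM of Ido1 with CpG (179 UMIs, 144 to 195), against 0 UMIs in Control, where the interval reached 7.90 CPM. Their Il4i1 was at 1174 CPM with CpG and 515 CPM with R848, against 253 CPM in Control. The mature dendritic cell genes of the same cells moved with it: Ccr7 was at 1869, 499 and 116 CPM and Fscn1 at 1686, 416 and 103 CPM with CpG, with R848 and in Control, and their part in the Ido1 and Il4i1 levels was not tested. In the 38 resting cDC1 of the CpG library, Ido1 was at 55.2 CPM, Ido2 at 21.02 CPM, Il4i1 at 78.8 CPM and Kmo at 105 CPM, against 1.59, 0.318, 22.3 and 48.6 CPM in the 387 of Control. In the 9 resting cDC1 of the R848 library, Kynu was at 128 CPM (58.4 to 243), against 46.4 CPM in Control. In the ungated cells (162, 159 and 417), Ido1 was at 18.0 CPM with CpG and 17.1 CPM with R848, against 1.32 CPM in Control. Il4i1 was at 266 CPM with CpG and 417 CPM with R848 there, against 193 CPM, and Kmo at 115 CPM with CpG, against 76.5 CPM.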

How the results depend on the processing

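Of 970 single-gene ratios recomputed under the alternatives, 899 stayed within the 95% counting interval of the reported value. A further 71 moved, and 0 called ratios changed sign. The 899 include 55 ratios with no minimum level and 55 with a minimum of 100 CPM. The minimum level does not enter a ratio, so these could not move. Of 370 counts 344 stayed and 26 moved. The counts of genes at least 2-fold higher or lower moved as follows. With no minimum level, CpG against Control gave 2 higher in all mature dendritic cells and 2 in Sirpa-positive ones (Ido1 and Ido2; 1 each in the report) and 1 in resting cDC2 (Ido1); R848 against Control gave 1 higher (Ido1) and 1 lower (Kmo) in all mature cells and 2 higher in Sirpa-positive ones. With a minimum of 100 CPM, the 2 higher with R848 in the LysoDC and in the Cd4-positive cells became 0, and so did the 1 in all mature cells with CpG and in Sirpa-positive cells with R848, since these genes lie under that level. Kmo with R848 became 1 lower in all mature cells at a Ccr7 gate of 100 CPM, at a lysozyme gate of 2500 CPM, without doublet removal and with TMM factors, and in Sirpa-positive cells without doublet removal or with 1 CPM added; TMM factors also gave 1 higher there over all mature cells (Ido1). With 1 CPM added, Kynu became 1 lower with CpG in mature cells. In resting cDC2, Ido1 became 1 higher with CpG at a Ccr7 gate of 900 CPM or a lysozyme gate of 2500 CPM, and Ido1 and Ido2 became 2 higher with R848 when Lyz1 alone at 2500 CPM set the lysozyme gate. Il4i1 became 1 lower in Cd4-positive cells with a Cd4 gate of 2 UMIs (CpG and R848), with free RNA subtracted (CpG) and with the gates as first written (CpG and R848). Where no construction is named, the cause was not tested.

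In Ccr7-expressing lysozyme-high cells with R848, Ido1 ranged from 183 CPM (gates as first written) to 312 CPM (Ccr7 gate of 900 CPM), and stayed above the other lysozyme-high cells by a log2 ratio of 1.58 or more. The Ccr7 gate of 900 CPM and the lysozyme gate of 2500 CPM each gave 45 of the 55 ratios, since classes fell under 50 cells. No paired analysis was possible because each condition is a single library. No replicate could be left out for the same reason. Classes of few cells limit the depth: 3 counts were 54.3 CPM in the 11 Ccr7-expressing lysozyme-high cells of Control.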
